A study of Mus musculus with 8 samples.

Results

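The D-type cyclins, their kinases and the inhibitors that hold them in check were followed as 10 genes, taken by their Ensembl mouse gene IDs from a fixed list. They are the cyclins Ccnd1, Ccnd2 and Ccnd3, the kinases Cdk4 and Cdk6, the inhibitors Cdkn1a, Cdkn1b, Cdkn2a and Cdkn2c, and Rb1. All 10 were found among the 27835 genes measured. The samples were proB colonies, grown from mouse bone marrow in a methylcellulose medium that favours B cell progenitors and taken after 1 week. There were 4 wild-type arrays and 4 arrays from transgenic cells that overexpress HMGN1, a protein that binds nucleosomes. The labels name no promoter for the transgene, no strain, and no animal behind each array. The p-values therefore speak of the spread among these arrays alone, part of which may be technical. Rows carry an Ensembl ID (with the suffix _at) and no symbol, and only the 10 listed genes could be named. Neither the overexpressed gene nor the markers of proB or other cells were examined here, so the label proB was not checked.

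In the G1 phase, D-type cyclins bind Cdk4 or Cdk6, and the active pair phosphorylates Rb, the product of Rb1. Phosphorylated Rb releases E2F factors, which switch on the genes for DNA replication. Inhibitors of the INK4 class bind Cdk4 and Cdk6 directly, while those of the CIP/KIP class bind complexes of cyclin and kinase. In mouse lymphocytes cyclin D2 and cyclin D3 are the usual D-type cyclins, and cyclin D3 is known for its part in the expansion of early B cells. The study's title concerns HMGN1 in B cell transformation, and the 2 genotypes were compared to find transcripts that differ with HMGN1 overexpression.

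Ccnd1 showed the largest difference among the 10 genes and was lower in the HMGN1-overexpressing colonies by 1.68-fold. Cdk4 and Cdk6 were slightly higher there, by 1.11-fold and 1.21-fold. For these 3 genes the values of the 2 genotypes did not overlap. None of the 10 genes passed the threshold over all genes (limma with Benjamini-Hochberg adjustment, adjusted p from 0.174 to 0.991), so none of them is called changed. Of all genes, 4 passed, or 0.0144%, a count that ran from 0 to 40 with 1 array left out and was 0 with the replicate number as a block (2374 at an unadjusted p under 0.05 by limma). A difference of 1.5-fold in either direction lay outside the 95% interval for 9 of the 10 genes, all but Ccnd1, and for 93.8% of all genes. At an unadjusted p under 0.05 stood 3 of the 10 (Ccnd1, Cdk4 and Cdk6), where 10.4% of all genes stood. Groups that did not overlap were found for the same 3 genes and for 6.81% of all genes, 4.15% higher and 2.66% lower in HMGN1-overexpressing colonies. Of the 10 genes, 9 (all but Cdkn2a) were among the 6959 genes of highest mean signal, where 11.2% had groups that did not overlap, 8.89% higher and 2.30% lower. The median log2 fold change was 0.05 over the 10 genes, 0.02 over those 6959 genes and -0.0018 over all genes. Since the genes were picked with earlier results of these data known, these counts are a description.

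**Figure D1:**
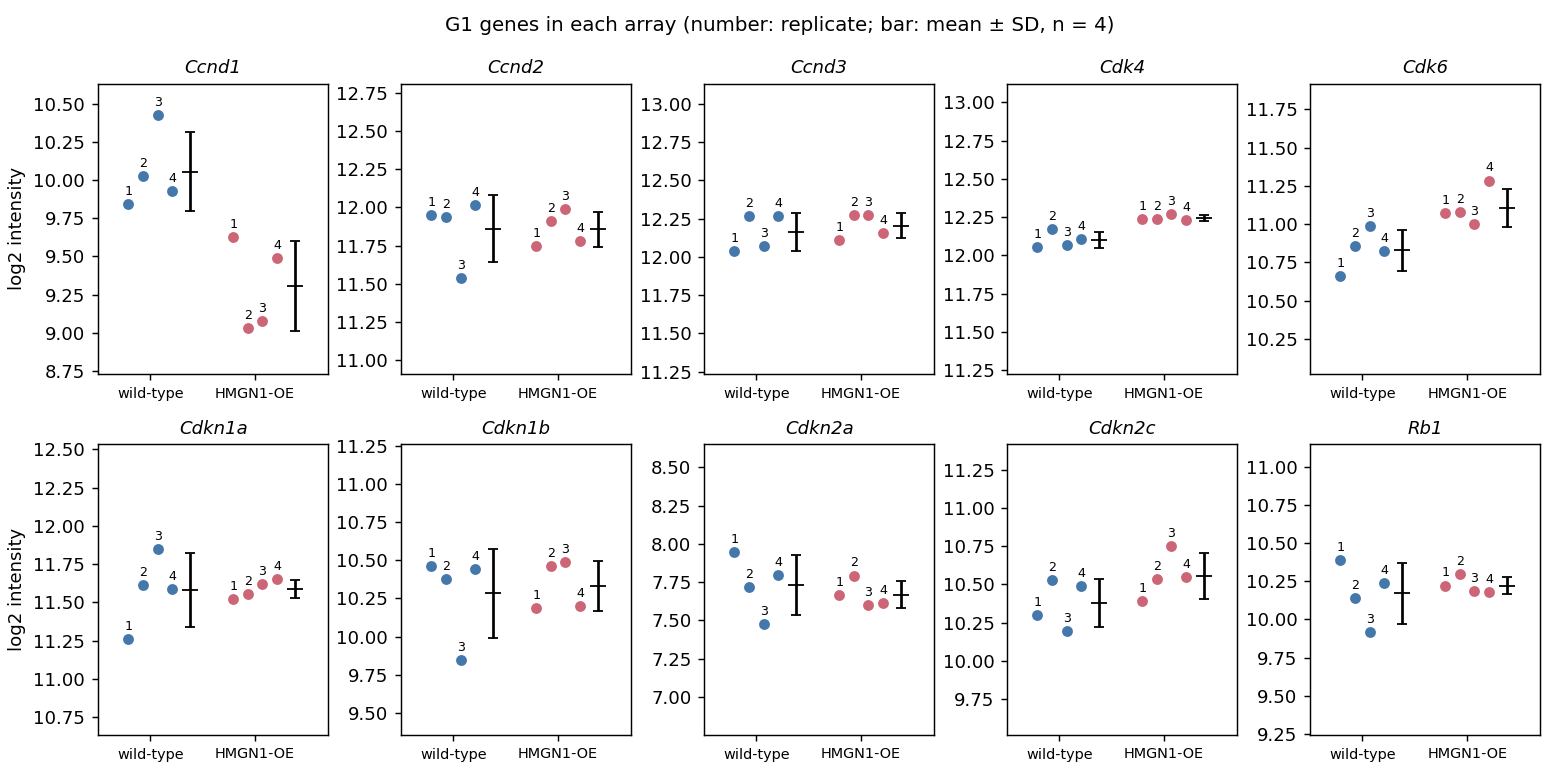
Log2 intensity (y axis, the same height in log2 units in every panel) of the 10 G1 genes in the 4 wild-type (blue) and 4 HMGN1-overexpressing arrays (HMGN1-OE, red), each point 1 array with its replicate number, black bars the mean ± SD (n = 4). The groups are apart for Ccnd1, Cdk4 and Cdk6 and overlap for the other genes, and wild-type replicate 3 is lowest for Ccnd2 and Cdkn1b.

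Arrays differed little in median intensity (95.8 to 100.1), which the normalization holds together. Wild-type replicate 3 lay far from the others on the first principal component of all genes (29.9% of variance), at 36.2 against -17.5 to 2.51. Among the 4 wild-type arrays it was the highest or lowest for 8 of the 10 genes, against 62.5% of all genes. Wild-type replicate 1 was an extreme for 8 of the 10 genes too, against 49.2% of all genes. The mean absolute deviation of wild-type replicate 3 from the wild-type mean over the 10 genes was 0.24 log2 units. The other 7 arrays deviated from their genotype means by 0.06 to 0.16. The differences of the 10 genes are given with and without wild-type replicate 3.

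Among the cyclins, Ccnd1 had the wider spread and the larger difference. Ccnd1 (ENSMUSG00000070348_at) had an intensity of 919, 1041, 1375 and 976 in wild-type replicates 1 to 4. The intensity was 789, 524, 539 and 719 in HMGN1-overexpressing replicates 1 to 4. The genotypes did not overlap, with wild-type replicate 3 highest of all and HMGN1 replicates 2 and 3 lowest, and the nearest arrays of the 2 genotypes were 0.22 log2 units apart. The means were 1078 ± 205 and 643 ± 132 (SD, n = 4 each), a log2 fold change of -0.75 (SE 0.16, limma adjusted p = 0.174). The 95% interval ran from 1.31-fold to 2.16-fold lower. By unadjusted p Ccnd1 ranked 166 of all 27835 genes, and by size of the difference 139. A mean lower by 1.5-fold or more was found for 192 genes, 0.690% of all. Without wild-type replicate 3 the log2 fold change of Ccnd1 was -0.63 (limma adjusted p = 0.170). Without HMGN1 replicate 1, the highest array of its genotype, it was -0.86 (limma adjusted p = 0.0832), and over all 15 alternatives the adjusted p lay between 0.0832 and 0.393.

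For the other 2 D-type cyclins the interval of the difference included 0. Ccnd2 (ENSMUSG00000000184_at), for cyclin D2, read 3960.5, 3927, 2978 and 4141 in wild-type replicates 1 to 4 and 3433, 3849.9, 4068 and 3522 in the HMGN1-overexpressing ones. The genotypes overlapped, and the 2978 of wild-type replicate 3 was the lowest of the 8 arrays. Its log2 fold change was -0.0046 (SE 0.11, limma adjusted p = 0.991), with a 95% interval from 0.84-fold to 1.18-fold. The sign was not stable: without HMGN1 replicate 1 the value was 0.03, and without wild-type replicate 3 it was -0.11. Ccnd3 (ENSMUSG00000034165_at), for cyclin D3, read 4209, 4939, 4310.4 and 4934 in wild-type arrays and 4425, 4953, 4954 and 4568 in HMGN1-overexpressing arrays. The 2 genotypes overlapped, and each held a higher pair of arrays and a lower pair. The log2 fold change of Ccnd3 was 0.04 (SE 0.08, limma adjusted p = 0.886), with an interval from 0.91-fold to 1.16-fold. Without wild-type replicate 3 it was 0.012, and without wild-type replicate 1 it was 0.00035. Whether the difference of Ccnd1 departs from those of Ccnd2 and Ccnd3 was not tested.

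Ccnd1 moved over the arrays with many other genes. Over the 8 arrays 291 of the other 27834 genes had a Pearson r of at least 0.9 with it, and the 3 closest among genes with a mean log2 intensity of at least 6 and an SD of at least 0.2 reached 0.992, 0.989 and 0.988. Their IDs are not paired with names here. Of the 57 genes whose mean was lower by 2-fold or more in HMGN1-overexpressing colonies, 32 were among the 291. Centred on each gene's mean of the 8 arrays, those 57 genes averaged between 0.52 and 0.79 log2 units in wild-type. They averaged -0.04 in HMGN1 replicate 1, and -0.76, -1.01 and -0.75 in the other 3 arrays of that genotype. Ccnd1 on the same scale lay between 0.16 and 0.75 in wild-type, at -0.06 in HMGN1 replicate 1 and at -0.65, -0.61 and -0.19 in HMGN1 replicates 2 to 4. HMGN1 replicate 1 was thus the nearest of its genotype to wild-type in both. The 57 genes come from the same contrast as the Ccnd1 value and are no independent evidence, and their part in the Ccnd1 difference was not tested. In such bulk RNA, fewer cells of a type and less RNA per cell cannot be told apart.

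The 2 kinases that partner the D-type cyclins were both higher in the HMGN1-overexpressing arrays. Cdk4 had the narrowest spread of the 10 genes. Cdk4 (ENSMUSG00000006728_at) read 4259, 4619, 4289 and 4412 in wild-type replicates 1 to 4 and 4837, 4834, 4949 and 4804 in HMGN1-overexpressing replicates 1 to 4. The genotypes did not overlap, though wild-type replicate 2 came within 0.06 log2 units of the lowest HMGN1-overexpressing array. The means were 4395 ± 163 and 4856 ± 63.5 (SD, n = 4 each), a log2 fold change of 0.14 (SE 0.05, limma adjusted p = 0.390, unadjusted p = 0.0237). With wild-type replicate 3 left out the log2 fold change was 0.13 (limma adjusted p = 0.425). With the replicate number as a block, the unadjusted p of Cdk4 was 0.0652 by limma. It was also above 0.05 without wild-type replicate 1 (0.0579 by limma) or HMGN1 replicate 3 (0.0562 by limma).

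Cdk6, the other kinase of the pair and a gene much studied in lymphoid leukaemia, showed a somewhat larger difference. Cdk6 (ENSMUSG00000040274_at) read 1617, 1851, 2027 and 1813 in wild-type arrays and 2149, 2159, 2046 and 2496 in HMGN1-overexpressing arrays. The genotypes were apart by only 0.01 log2 units, between wild-type replicate 3 and HMGN1 replicate 3, and after quantile normalization they overlapped. The means were 1827 ± 168 and 2213 ± 196 (SD, n = 4 each), a log2 fold change of 0.28 (SE 0.09, limma adjusted p = 0.299, unadjusted p = 0.0103). Without wild-type replicate 3, the highest of its genotype, the log2 fold change was 0.33 (limma adjusted p = 0.203).

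The promoter windows of Cdk4 and Cdk6 are printed here because these 2 genes lay higher in every HMGN1-overexpressing array. The sequences are RefSeq's, build GRCm38.p6, from 250 bases before to 50 bases after a start, both on the plus strand. They lie at chr10:127063285-127063584 for Cdk4 and chr5:3343643-3343942 for Cdk6. The Cdk6 gene is listed from chr5:3341004, so its window lies inside the gene, and no window covers that first position. Capitals mark the E-box CACGTG, which reads the same on both strands and is bound by Myc and related factors.
Cdk4: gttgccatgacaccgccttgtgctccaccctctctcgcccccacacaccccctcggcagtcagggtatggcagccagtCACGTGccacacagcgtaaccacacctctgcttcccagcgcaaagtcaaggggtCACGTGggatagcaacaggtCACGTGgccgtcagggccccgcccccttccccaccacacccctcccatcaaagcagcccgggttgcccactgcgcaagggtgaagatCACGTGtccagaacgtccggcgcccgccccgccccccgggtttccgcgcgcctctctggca
Cdk6: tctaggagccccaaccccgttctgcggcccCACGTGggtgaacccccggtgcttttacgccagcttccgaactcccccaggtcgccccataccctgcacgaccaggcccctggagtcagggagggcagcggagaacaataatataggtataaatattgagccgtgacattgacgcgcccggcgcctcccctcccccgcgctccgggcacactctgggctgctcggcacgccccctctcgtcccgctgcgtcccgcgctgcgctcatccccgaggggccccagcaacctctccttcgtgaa
The Cdk4 window held 4 E-boxes and the Cdk6 window 1. At least 1 was found in 7.15% of 32851 promoter windows of this length, and at least 4 in 8 of them (0.0244%). The cutoff of 4 equals the count of Cdk4 itself, and the E-box was the only motif searched. Of the 10 genes, 7 had 1 or more windows, 11 in all. Ccnd1, Ccnd2 and Rb1 had no window and could not be searched. Besides Cdk4 and Cdk6, 1 of the 2 windows of Cdkn2c held 1 E-box. A match of letters is a description of the sequence and shows no binding.

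**Figure D2:**
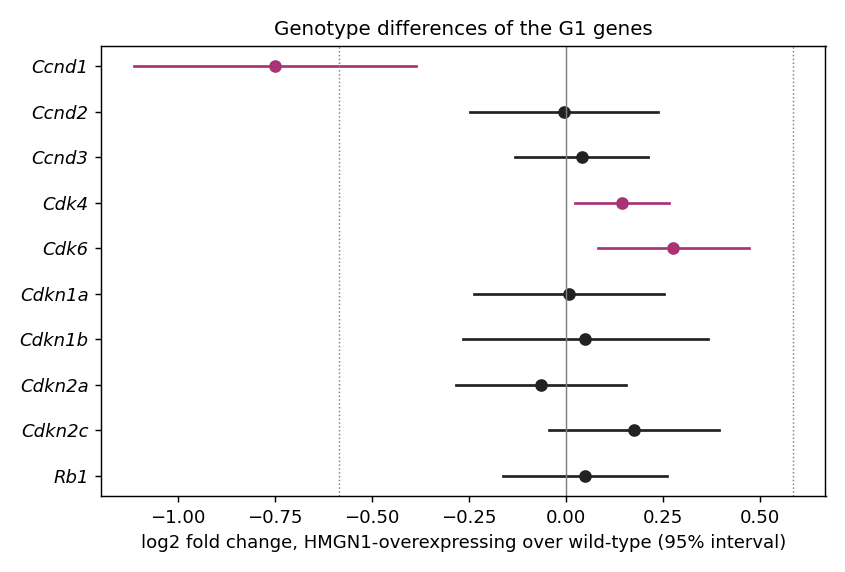
Log2 fold change of the 10 G1 genes, HMGN1-overexpressing over wild-type (x axis), with the 95% interval of the limma fit (n = 4 arrays each); purple marks genes whose groups did not overlap, and dotted lines mark 1.5-fold. Ccnd1 lies to the left at -0.75, Cdk4 and Cdk6 lie to the right of 0, and the intervals of the other 7 genes include 0.

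Neither of the CIP/KIP inhibitors differed by genotype beyond the spread between arrays. Cdkn1a (ENSMUSG00000023067_at), for p21, a target of p53 that halts the cycle, read 2458, 3136, 3689.96 and 3078 in wild-type arrays and 2946, 3011, 3144 and 3219 in HMGN1-overexpressing arrays. The wild-type arrays enclosed all the others, with replicate 1 lowest and replicate 3 highest. This gave a log2 fold change of 0.0092 (SE 0.11, limma adjusted p = 0.984), with an interval from 0.85-fold to 1.19-fold. The sign turned in 4 of the 15 alternatives, among them without wild-type replicate 1 (-0.096), and without wild-type replicate 3 the value was 0.099. Cdkn1b (ENSMUSG00000003031_at), for p27, which accumulates in resting cells, read 1408, 1332, 919 and 1393.5 in wild-type arrays. It read 1164, 1408, 1434 and 1177 in HMGN1-overexpressing arrays, which formed a lower pair (replicates 1 and 4) and a higher pair (2 and 3). For Cdkn1b the log2 fold change was 0.05 (SE 0.14, limma adjusted p = 0.929), with an interval from 0.83-fold to 1.29-fold. The sign of Cdkn1b turned without wild-type replicate 3 (-0.095, limma adjusted p = 0.760), without HMGN1 replicate 3 (-0.00040) and with array weights (-0.030).

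Of the INK4 inhibitors, Cdkn2c had the larger difference. Cdkn2c (ENSMUSG00000028551_at), for p18, read 1259.7, 1474, 1174 and 1434 in wild-type arrays and 1339.96, 1481, 1721 and 1494 in HMGN1-overexpressing arrays. HMGN1 replicate 3 stood above all other arrays, and replicate 1 lay among the wild-type values. Its log2 fold change was 0.18 (SE 0.10, limma adjusted p = 0.568), with an interval from 0.97-fold to 1.32-fold. Without HMGN1 replicate 1 the value was 0.23 (limma adjusted p = 0.501). The groups then no longer overlapped, which follows from leaving out the only HMGN1-overexpressing array within the wild-type range. Without HMGN1 replicate 3 it was 0.11 (limma adjusted p = 0.788), and without wild-type replicate 3 it was 0.12 (limma adjusted p = 0.716).

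Cdkn2a (ENSMUSG00000044303_at) gives rise to p16Ink4a and p19Arf from separate first exons, is a textbook target of Polycomb repression, and is often deleted in human B cell leukaemia. The study's title names loss of the Polycomb mark, H3 Lys27 trimethylation. RefSeq holds 2 promoter windows for the gene, and the deposited row gives 1 value, so the products cannot be told apart. It read 246, 210.1, 178 and 222 in wild-type arrays and 203, 222, 194 and 196 in HMGN1-overexpressing arrays. The HMGN1-overexpressing arrays all lay within the wild-type range. A log2 fold change of -0.06 (SE 0.10, limma adjusted p = 0.853) was found, with an interval from 0.82-fold to 1.11-fold, and its sign turned without wild-type replicate 1 (0.0056, limma adjusted p = 0.989). The value was -0.15 (limma adjusted p = 0.533) with wild-type replicate 3 left out. In every array the Cdkn2a intensity lay above the array's median over all genes (medians 95.8 to 100.1). Whether this signal lies above background is unknown, since no detection call was used.

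Rb1 (ENSMUSG00000022105_at), the target of the cyclin D kinases, read 1339.9, 1128, 967 and 1206 in wild-type arrays and 1194, 1257, 1163 and 1158 in HMGN1-overexpressing arrays. As with Cdkn1a and Cdkn2a, the wild-type arrays enclosed the others. For Rb1 the log2 fold change was 0.05 (SE 0.09, limma adjusted p = 0.892), with an interval from 0.89-fold to 1.20-fold. Without wild-type replicate 3, the lowest array, it was -0.03 (limma adjusted p = 0.907). The wild-type SD of log2 intensity was the larger for 9 of the 10 genes, all but Ccnd1, and for 61.1% of all genes. Without wild-type replicate 3 it was the larger for 5 of the 10 and for 47.6% of all genes.

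Within genotypes the closest pairs of genes fell in 2 patterns, which were linked to each other. Deviations from the genotype means were compared over the 8 arrays by Pearson r, as a description without a test, for 45 pairs of genes. The arrays were normalized together, and each gene has many partners at such values: 65 to 978 of the 27834 other genes lay at or beyond 0.9 in 1 direction for each of the 10 genes. Of the 45 pairs, 5 had an r of 0.9 or more in size, and 2 did over the 8 arrays without removal of the genotype means.

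The first pattern joined Ccnd2 with Cdkn1b, a cyclin and an inhibitor, and set Ccnd1 against both. For Ccnd2 and Cdkn1b r was 0.985 within genotypes (0.938 without wild-type replicate 3) and 0.976 over the 8 arrays. By this measure Cdkn1b ranked 12 among all other genes for likeness to Ccnd2, and Ccnd2 ranked 27 for likeness to Cdkn1b. Wild-type replicate 3 was lowest for both, HMGN1 replicates 1 and 4 came next, and the other 5 arrays were higher. For Ccnd1 and Ccnd2 r was -0.883 within genotypes, and for Ccnd1 and Cdkn1b it was -0.923 within genotypes (-0.885 and -0.980 without wild-type replicate 3). In the wild-type arrays the order of Cdkn1b, from replicate 1 down through 4 and 2 to 3, was the exact reverse of that of Ccnd1. Over the 8 arrays r for Ccnd1 and Cdkn1b was -0.60, and -0.15 without wild-type replicate 3. Both values hold the genotype differences of the 2 genes. The log2 fold changes of Ccnd1 and Cdkn1b were -0.75 and 0.05, or -0.63 and -0.095 without wild-type replicate 3. HMGN1 replicates 1 and 4 lay both above or both below replicates 2 and 3 in 4 of the 10 genes (Ccnd1, Ccnd2, Ccnd3 and Cdkn1b), and in 41.5% of all genes.

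**Figure D3:**
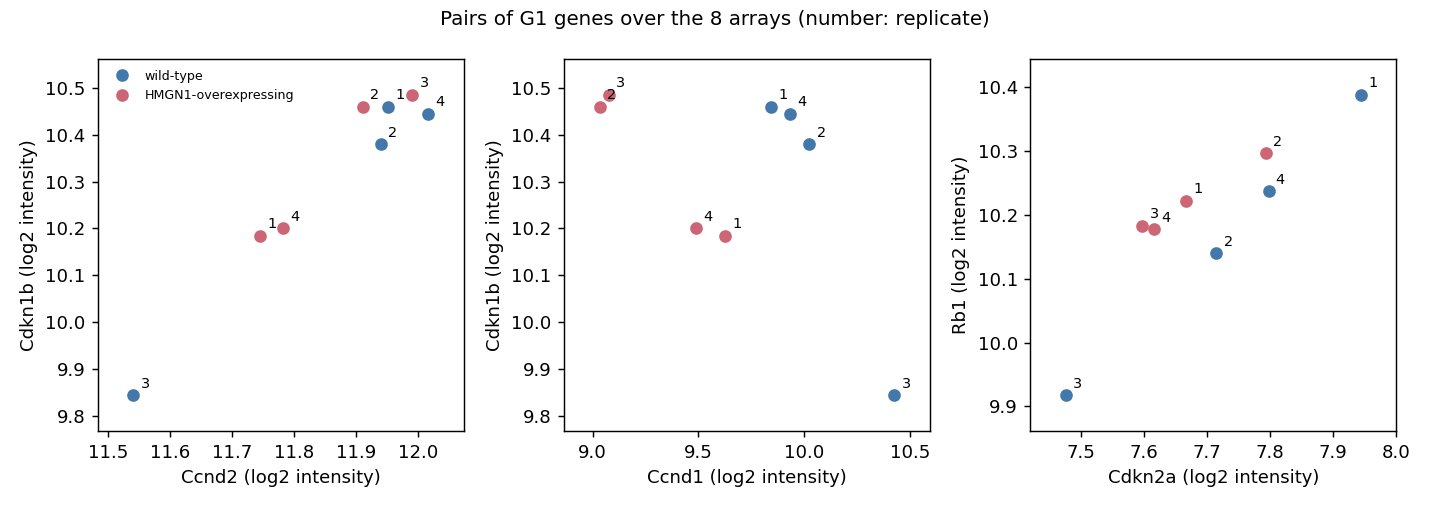
Log2 intensity of Cdkn1b against Ccnd2 (left), Cdkn1b against Ccnd1 (middle) and Rb1 against Cdkn2a (right) in 4 wild-type (blue) and 4 HMGN1-overexpressing arrays (red), numbered by replicate. The 8 points follow 1 rising line on the left (r = 0.976), whereas in the middle each genotype falls along its own line, the HMGN1-overexpressing one shifted to lower Ccnd1.

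The second pattern joined Cdkn2a with Rb1 and set Cdkn1a against both. For Cdkn2a and Rb1 r was 0.987 within genotypes (0.964 without wild-type replicate 3). Rb1 ranked 3 among all other genes for likeness to Cdkn2a, and Cdkn2a ranked 10 for likeness to Rb1. For Cdkn1a r was -0.947 with Rb1 and -0.912 with Cdkn2a, or -0.893 and -0.801 without wild-type replicate 3. Wild-type replicates 1 and 3 were the ends of this pattern: replicate 1 was highest for Cdkn2a and Rb1 and lowest for Cdkn1a, and replicate 3 the opposite. The 2 patterns were not separate over all 8 arrays. For Cdkn1b r was 0.808 with Rb1 and 0.790 with Cdkn2a, and for Ccnd2 it was 0.737 with Rb1. Without wild-type replicate 3 these values were 0.326, 0.322 and 0.057, so the links leaned on that array. Outside these patterns Ccnd3 and Cdkn2c had an r of 0.845, and Ccnd3 and Cdk4 one of 0.784 (0.818 and 0.741 without wild-type replicate 3). Cdk4 and Cdk6, both higher in HMGN1-overexpressing arrays, had an r of -0.04 within genotypes, or 0.25 without wild-type replicate 3. The r of 0.69 between them over the 8 arrays holds the genotype difference that both showed.

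**Figure D4:**
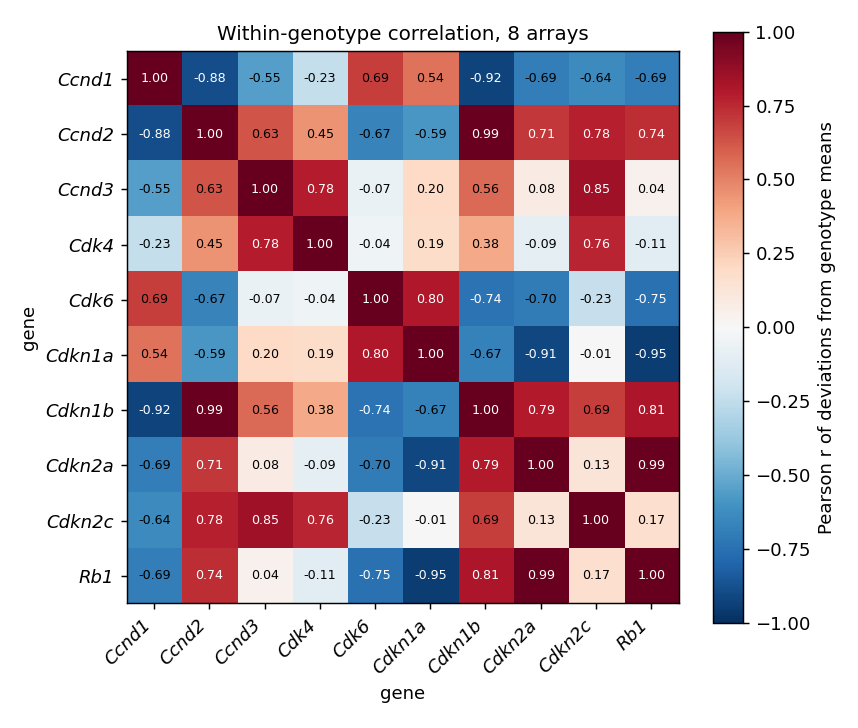
Pearson r between deviations of log2 intensity from the genotype means (colour, -1 to 1) for all pairs of the 10 G1 genes (both axes) over 8 arrays. Ccnd2 with Cdkn1b and Cdkn2a with Rb1 are the closest pairs (both 0.99), and Cdkn1a with Rb1 is the most opposed (-0.95).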

How the data were processed

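RNA of 8 proB colony samples was measured on Affymetrix arrays, and 1 array was deposited per sample. The authors made the values with RMA, per the submitters' processing notes, a method that corrects background, gives the arrays a common distribution and summarises probes. The deposited table holds 1 intensity per Ensembl gene ID and array, read as linear from its range (5.80 to 17578), without a stated release of the Ensembl genes. A common distribution hides any change in total RNA. Log2 of the intensity was fitted with limma 3.58.1 (R 4.3.3) over all 8 arrays and 27835 genes, with genotype as the only term, no filter, and Benjamini-Hochberg adjustment at 0.05. Errors are the SD of 4 arrays or the fit's SE. The fit was tested on simulated data. Precision is limited by the number of arrays, the median 95% interval being ± 0.18 on the log2 scale over all genes.

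The 10 genes and all lists were chosen with earlier results of these data known. All 10 were to be named, with the 3 genes most like each of the 3 most variable members. The reference table paired 0 Ensembl IDs with symbols, so those genes stay unnamed and 14 symbol lists (pathway genes and cell type markers) were not used. Groups came from the sample titles, and no 2 arrays were copies (equal values for 0.0144% to 0.108% of genes). There were 0 columns of other samples. Arrays that share a replicate number did not deviate together (r from -0.24 to -0.08 over all genes). Alternatives left out each array, added the replicate number as a block, subtracted array medians, applied quantile normalization again, used log2(intensity + 16), weighted the arrays, kept only genes above the median signal, or fitted a trended, robust variance.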

Additional observations from a re-analysis of the deposited data

Results flagged for a closer look

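The 20 groups of 4 values (10 genes in 2 genotypes) were each examined for an array far from the other 3, relative to the group's range. Wild-type replicate 3 stood apart for 2 genes, Ccnd2 at a log2 intensity of 11.54 (nearest array 11.94) and Cdkn1b at 9.84 (nearest 10.38). Chance gives about 1 such group in 20. These 2 genes followed each other over the arrays, so the 2 values are not separate evidence.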

How the results depend on the processing

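None of the 150 recomputed differences (10 genes, 15 alternatives) passed the threshold by limma, and 15 turned in sign (Ccnd2, Cdkn1a, Cdkn1b, Cdkn2a and Rb1). The cause was not tested. The log2 fold change of Ccnd2 was 0.013 with array medians subtracted, that of Cdkn1a -9.97e-05 after quantile normalization and that of Cdkn1b -0.030 with array weights. Leaving out 1 array gave -0.11 to 0.047 for Ccnd2, -0.096 to 0.099 for Cdkn1a, -0.095 to 0.11 for Cdkn1b, -0.15 to 0.0056 for Cdkn2a and -0.035 to 0.12 for Rb1. Ccnd1 (-0.86 to -0.63), Ccnd3 (0.00035 to 0.077), Cdk4 (0.13 to 0.17), Cdk6 (0.22 to 0.33) and Cdkn2c (0.11 to 0.23) kept their sign under all 15. Over all genes, 4 passed; leaving out 1 array gave 0 to 40, with 40 without HMGN1 replicate 1, 9 without wild-type replicate 1, 1 without wild-type replicate 4 and 0 without any of the other 5. In the fit blocked on replicate number limma called 0 genes, 2374 having an unadjusted p under 0.05, and the log2 fold change of Ccnd1 was -0.75 (adjusted p = 0.386). Arrays of one number did not deviate together and may share only the number. Added after the data were seen, the count of the 10 genes at an unadjusted p under 0.05 was 2 to 4 by limma. Over all genes 2266 to 3122 stood there, or 1942 with only genes above the median signal kept. Groups of the 10 genes that did not overlap, also counted afterwards, numbered 2 to 4 in 10 of the 15 alternatives. The share of all genes was not computed for these, and it may be larger where an array is left out. No signal over background was used, so detection of dim genes is unknown.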
